A study of Homo sapiens with 8 samples.

Results

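The JmjC histone demethylases KDM2A, KDM2B, KDM3A, KDM4A, KDM4B, KDM4C, KDM5B, KDM6A and KDM6B, together with the JmjC protein JMJD6, were examined for binding of HIF-1β in hypoxic cancer cells. These 10 genes were taken by name from the 20136 protein-coding genes of the annotation, and every HIF-1β peak that overlapped the gene body extended by 25 kb on each side was assigned to them. The choice of genes was made with earlier results of these data known. Binding had been measured by chromatin immunoprecipitation and sequencing (ChIP-seq) with an antibody against HIF-1β, in PC-3 (prostate cancer), T47D (breast cancer), A549 (lung cancer) and HCT-116 (colorectal cancer) cells. All 8 libraries came from cells kept at 0.5% oxygen for 16 h, with 2 libraries for each line, numbered 1 and 2 in PC-3 and T47D cells and 2 and 3 in A549 and HCT-116 cells. Normoxic cells, an input library and gene expression were not analysed here, so the values describe where HIF-1β was found in hypoxia and not whether the genes changed.

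The lists held between 1042 peaks (PC-3 replicate 1) and 3790 peaks (HCT-116 replicate 2), each with a score that has no common scale between libraries. For this reason, the strength of a peak was given as the percentage of peaks in the same library that scored higher, so that a low percentage is a strong peak. A site was a region where peaks of both replicates of a line overlapped by at least 1 bp. No 2 libraries had a peak with identical limits. Read depth is unknown, because the lists contain no reads, and nothing in the labels says whether replicates were separate cultures.

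HIF-1β pairs with an oxygen-regulated HIF-α subunit, and the dimer binds DNA at a short core sequence that reads ACGTG or GCGTG. The antibody was against HIF-1β alone, so the peaks do not tell which partner was bound with it. JmjC demethylases are dioxygenases that use iron, molecular oxygen and 2-oxoglutarate to remove methyl groups from histone lysines, so they need the same co-substrates as the prolyl hydroxylases that mark HIF-α for destruction. KDM3A and KDM4B are known as genes that hypoxia induces through HIF.

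The GRCh37 (hg19) reference around the HIF core of 8 member regions is shown first. Some of these regions had a site in all 4 lines and others in fewer. Regions with a site in a single line are not among them. For every region, the copy of the core closest to the mean centre of the peaks was taken. Letters in capitals mark each ACGTG or GCGTG, on either strand, and all stretches are written 5′ to 3′ on the plus strand. They run 75 bases to either side of the middle base of that copy, or 14 where the copy falls in an exon of a protein-coding gene.
KDM3A promoter, chr2:86667951-86667979: cgcctgaaaccgCACGTtctcttccctgc
KDM4B promoter, chr19:4968529-4968679: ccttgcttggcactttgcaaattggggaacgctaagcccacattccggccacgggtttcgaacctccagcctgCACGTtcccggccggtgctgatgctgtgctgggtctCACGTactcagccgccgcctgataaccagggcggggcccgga
KDM4C promoter, chr9:6757865-6757893: cccaaagcaagaGCGTGccgggcaccttt
KDM4C upstream region, chr9:6716275-6716425: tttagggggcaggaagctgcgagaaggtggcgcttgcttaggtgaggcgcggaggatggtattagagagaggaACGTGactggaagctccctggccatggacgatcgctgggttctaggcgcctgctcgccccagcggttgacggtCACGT
KDM2A promoter, chr11:66886535-66886685: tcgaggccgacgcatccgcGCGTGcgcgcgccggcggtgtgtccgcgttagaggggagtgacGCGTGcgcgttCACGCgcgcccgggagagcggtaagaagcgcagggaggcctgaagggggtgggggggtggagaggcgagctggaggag
KDM5B upstream region, chr1:202780445-202780595: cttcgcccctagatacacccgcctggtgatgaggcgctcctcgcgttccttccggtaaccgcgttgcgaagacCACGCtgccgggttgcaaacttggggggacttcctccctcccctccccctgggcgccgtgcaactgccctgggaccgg
KDM6B intron 1, chr17:7739121-7739271: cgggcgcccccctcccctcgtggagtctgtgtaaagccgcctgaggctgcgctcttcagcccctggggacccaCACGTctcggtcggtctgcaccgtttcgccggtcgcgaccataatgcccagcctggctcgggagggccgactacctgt
JMJD6 promoter, chr17:74722842-74722870: tgttgggaaggtCACGTcggctgcgtcac

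The KDM4C upstream region held a core exactly at the mean centre of its peaks. The copies shown for the KDM3A and JMJD6 promoters lay further off, at -142 and -229 bp (negative values are upstream). Neither of these promoter regions held a copy within 100 bp of the centre. In the KDM2A promoter, 3 copies lay close together near the centre, all of the GCGTG form, and the whole KDM2A region had no ACGTG. In the KDM4B promoter both copies shown are ACGTG, read from the minus strand as CACGT.

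Among the 10 genes, 7 had a site in PC-3, 8 in T47D, 5 in A549 and 6 in HCT-116. Of all protein-coding genes, 7.08% had a site by the same rule in PC-3, 16.0% in T47D, 6.02% in A549 and 14.2% in HCT-116. Because earlier results were known when the 10 genes were chosen, their numbers beside these shares are a description only. KDM3A, KDM4B, KDM4C and KDM6B had a site in all 4 lines, as did 2.46% of all genes. KDM2A and JMJD6 had one in every line but A549, a pattern of 1.52% of all genes. KDM5B had one in every line but HCT-116 (0.223% of all genes), and KDM2B in T47D cells alone (6.49%). KDM4A and KDM6A had no site in any line, and the same held for 75.6% of all genes. Most of the 10 genes are long, with a median length of 111406 bp against 27217 bp for all protein-coding genes, and a longer gene has a larger window in which a site can fall. KDM6B (20580 bp) and JMJD6 (13968 bp) are shorter than the median of all genes.

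Sites within 2 kb of a transcription start, a window that does not grow with gene length, were found for 5 of the genes in PC-3, 8 in T47D, 4 in A549 and 6 in HCT-116. The shares of all protein-coding genes were 2.34%, 7.39%, 1.87% and 6.46%, respectively. The same 4 genes, KDM3A, KDM4B, KDM4C and KDM6B, had a promoter site in all 4 lines, against 0.958% of all genes. The 10 genes also have more annotated starts, with a median of 4.5 against 3. When the start of the canonical transcript alone was used, the numbers of members remained at 5, 8, 4 and 6, and the shares of all genes were 1.97%, 6.64%, 1.47% and 5.75%. With 500 bp around a start, the numbers were 4, 7, 3 and 5, against 2.04%, 6.96%, 1.6% and 6.02% of all genes. KDM6B then had no promoter site in PC-3, A549 or HCT-116 cells, where its peaks ended between 769 and 1030 bp from the start.

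**Figure D1:**
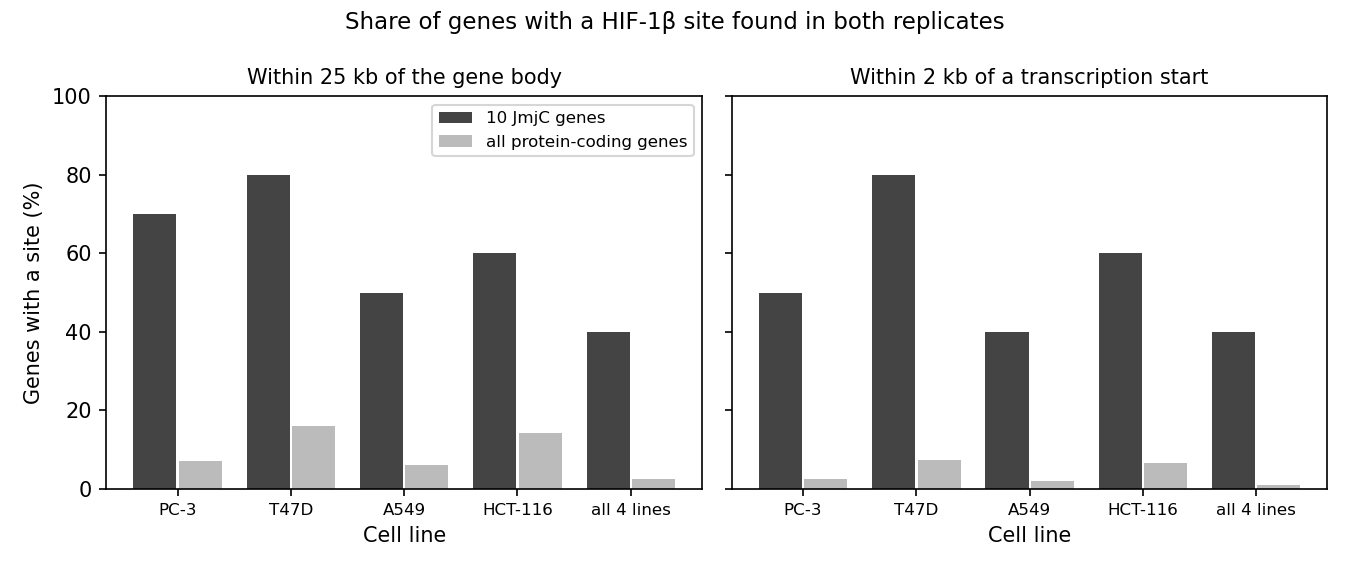
Share of genes with a HIF-1β site found in both replicates (%, vertical axis) in each line and in all 4 lines, for the 10 JmjC genes (dark bars) and all 20136 protein-coding genes (light bars), within 25 kb of the gene body on the left and within 2 kb of a transcription start on the right. The bars for the 10 genes, which were chosen with earlier results of these data known, stand above those for all genes in every line. Under both rules, 4 of the 10 genes had a site in all 4 lines.

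KDM3A removes mono- and dimethylation from lysine 9 of histone H3 and had the strongest peak of the 10 genes in 6 of the 8 libraries. The percentage of peaks scoring higher was 1.44% and 0.173% in PC-3 replicates 1 and 2, 0.523% and 0.825% in T47D, 0.735% and 0.394% in A549, and 0.396% and 0.941% in HCT-116. Its peak was thus between the 6th (PC-3 replicate 2 and A549 replicate 3) and the 25th strongest of its list (T47D replicate 2). All 8 peaks fell on a single region, chr2:86667122-86669077, with centres no more than 162 bp apart. The mean centre lay at -386 bp from the canonical start (negative values are upstream) and 184 bp downstream of the nearest annotated start, and the region held 7 copies of the core. Among the 232 regions with a site in all 4 lines, ordered by the mean percentage over the 8 libraries, the KDM3A region was the 6th strongest. By the mean of both replicates, it was the 5th strongest of 372 genes in A549 cells and the 17th of 1480 in T47D cells. These are the genes with a promoter site at which the peak of each replicate itself reached to within 2 kb of a start, slightly fewer than the 376 and 1488 genes with a promoter site.

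KDM4A, KDM4B and KDM4C remove tri- and dimethylation from lysines 9 and 36 of histone H3, and these paralogues differed widely. KDM4B had a promoter peak in all 8 libraries, with 4.61% and 0.796% of peaks scoring higher in PC-3, 0.457% and 0.515% in T47D, 3.56% and 3.23% in A549, and 0.976% and 1.88% in HCT-116. In both T47D libraries it outranked KDM3A, and it was the 15th and 16th strongest peak of these lists. The region, chr19:4967547-4969283, was centred 606 bp upstream of the start of KDM4B, held 9 copies of the core and took the 26th place among the 232 regions of all 4 lines.

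Weaker sites lay elsewhere at KDM4B, in T47D cells only. One was in intron 1, 22938 bp downstream of the start, with 42.1% and 18.2% of peaks scoring higher in replicates 1 and 2, and it was the only one of 13 member regions with a site that held no copy of the core. The other lay beyond the 3′ end of the gene, at chr19:5164462-5165712, with 30.3% and 54.1% of peaks scoring higher. HCT-116 replicate 2 also had a peak there (40.2%), without a counterpart in replicate 3. Single peaks of PC-3 replicate 2 (95.0%) and HCT-116 replicate 2 (93.7%) at KDM4B were among the weakest of their lists.

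KDM4C had 2 regions with sites. Its promoter region, chr9:6756831-6758806, carried a peak in all 8 libraries and held 13 copies of the core, the most of any of the regions. The percentage of peaks scoring higher there was 15.1% and 5.47% in PC-3, 3.43% and 5.74% in T47D, 22.3% and 45.8% in A549, and 3.30% and 8.42% in HCT-116. The A549 libraries were the 2 weakest.

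The other KDM4C region, chr9:6715491-6717090, was centred at -41622 bp from the canonical start and 4512 bp upstream of the nearest annotated start of KDM4C, and 194 bp from the start of a non-coding gene without a symbol. It had a peak in both A549 libraries (19.3% and 30.7%) and in both HCT-116 libraries (1.0% and 2.04%), and none in PC-3 or T47D cells. In HCT-116 cells it was the 39th and 40th strongest peak of the lists and outranked the KDM4C promoter in both replicates. In A549 cells it also outranked the promoter in both. Beyond the window, between 38613 and 38665 bp from KDM4C, peaks of both T47D replicates, both HCT-116 replicates and A549 replicate 2 had 32.2% to 86.7% of peaks scoring higher. The only other peak within 50 kb of a member was one of HCT-116 replicate 2, at 40451 bp from JMJD6 (48.3%).

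KDM4A had a single peak, in T47D replicate 1, with 88.4% of peaks scoring higher. It lay 57168 bp downstream of the start of KDM4A and 210 bp from a start of ST3GAL3, and none of the 8 libraries had a peak at the KDM4A promoter.

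**Figure D2:**
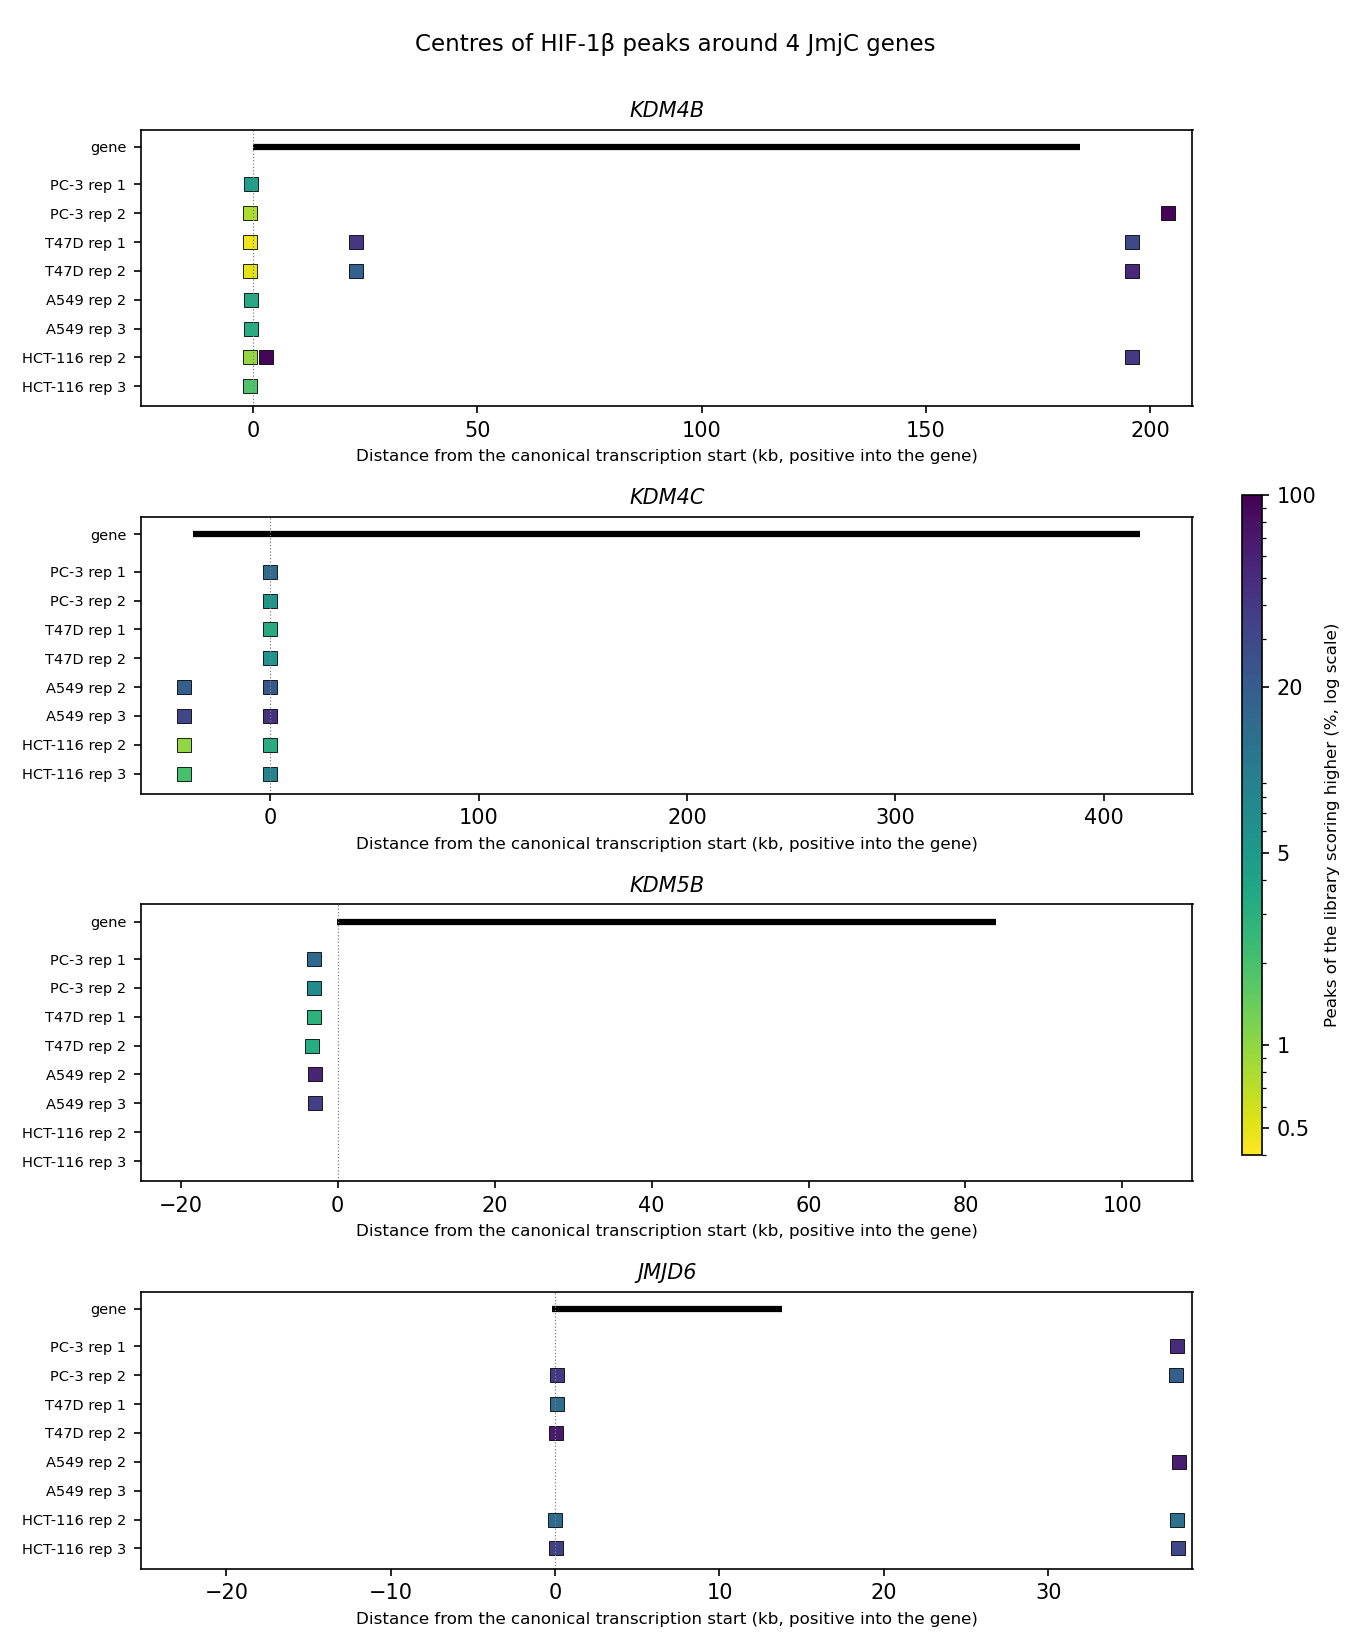
Centres of HIF-1β peaks (squares) in the 8 libraries (rows) by distance from the canonical transcription start in kb (horizontal axis), for KDM4B, KDM4C, KDM5B and JMJD6; the black bar is the gene, and the colour gives the percentage of peaks of the library that scored higher, on a log scale. The KDM4B promoter was marked in all 8 libraries, the KDM4C region far upstream of the canonical start in A549 and HCT-116 cells only, and KDM5B had no peak in either HCT-116 library.

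KDM2A and KDM2B remove dimethylation from lysine 36 of histone H3 and bind unmethylated CpG islands. The KDM2A promoter had a peak in 7 libraries, with 39.8% and 7.58% of peaks scoring higher in PC-3 cells, 10.5% and 8.56% in T47D cells, and 13.7% in each of the HCT-116 libraries. In A549 cells, replicate 2 had a peak just above the score limit (score 50.2, 99.4% scoring higher) and replicate 3 had none, so no site was counted. The region, chr11:66885994-66887399, had a GC content of 75.2%, the highest of the member regions. KDM2B had a promoter site in T47D cells alone, with 67.9% and 54.0% of peaks scoring higher, and a peak of PC-3 replicate 1 at the same place (71.9%). Of all protein-coding genes, 3.4% had a promoter site in T47D cells alone. A weak peak of T47D replicate 2 in intron 12 of KDM2B (86.7%) had no counterpart in replicate 1. In the whole promoter region of KDM2B, chr12:122017855-122019641, there were 3 copies of the core.

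KDM5B removes methylation from lysine 4 of histone H3, a mark of active promoters. Its region, chr1:202779366-202782250, was centred at -3030 bp from the canonical start of KDM5B and 602 bp from the start of PCAT6, a non-coding gene. The percentage of peaks scoring higher was 15.8% and 6.95% in PC-3 cells, 2.87% and 3.26% in T47D cells, and 57.6% and 36.5% in A549 cells, and neither HCT-116 library had a peak. Of the lines with a site, both T47D libraries ranked strongest and both A549 libraries weakest. With 2 libraries a line, such an order can also arise at other genes, and how often it did was not counted. The T47D peaks were wider (2517 and 2849 bp) and reached to 1751 and 1787 bp from a start of KDM5B, while those of PC-3 and A549 cells ended between 2200 and 2334 bp from it. The region therefore counted as a promoter site in T47D cells only, although the centres of all 6 peaks lay within 409 bp. With a promoter of 5 kb, KDM5B counted in all 3 of these lines. Of all protein-coding genes, 45 (0.223%) had the pattern of KDM5B within 25 kb, with a site in PC-3, T47D and A549 cells and none in HCT-116 cells.

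KDM6A and KDM6B remove methylation from lysine 27 of histone H3, the mark that Polycomb proteins set. KDM6B had a peak in intron 1, centred 1684 bp downstream of the start, in all 8 libraries. The percentage of peaks scoring higher was 14.2% and 10.6% in PC-3, 5.55% and 8.38% in T47D, 30.7% and 32.0% in A549, and 1.79% and 5.80% in HCT-116. The region, chr17:7737773-7740833, was the widest of the member regions at 3061 bp, and held 11 copies of the core. The T47D peaks overlapped over 48.8% of their joint length with centres 754 bp apart, which was the poorest agreement of replicates at any member site. A further site, 23608 bp downstream of the canonical start and beyond the end of the gene, was found in HCT-116 cells (18.2% and 73.9%). It lay 28 bp from a start of NAA38 and also covered a start of CYB5D1, and T47D replicate 1 had a peak there as well (73.8%). KDM6A, on the X chromosome, had a single peak in T47D replicate 1, at its promoter, with 58.8% of peaks scoring higher, and none in the other 7 libraries. The KDM6A peak held 5 copies of the core, 3 of them within 100 bp of its centre.

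JMJD6 acts as a hydroxylase of lysines in splicing factors and has been described as an arginine demethylase. Its promoter region, chr17:74721460-74723970, which also covered a start of METTL23, had a site in T47D cells (14.3% and 68.8% of peaks scoring higher in replicates 1 and 2) and in HCT-116 cells (15.5% and 34.5%). PC-3 replicate 2 also had a peak there (39.0%), and replicate 1 did not. No A549 library had a peak at the JMJD6 promoter. The replicates of T47D cells differed by 54.5 percentage points at this site, nearly as much as at the NAA38 site, where the difference of 55.7 points was the largest of the 32 member sites. The site that counted for JMJD6 in PC-3 cells lay 37856 bp downstream of its start and 46 bp from a start of MXRA7, with 51.2% and 19.4% of peaks scoring higher, and the same region was a site in HCT-116 cells (12.8% and 31.1%). A549 replicate 2 had a peak there as well (64.9%), without a counterpart in replicate 3.

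**Figure D3:**
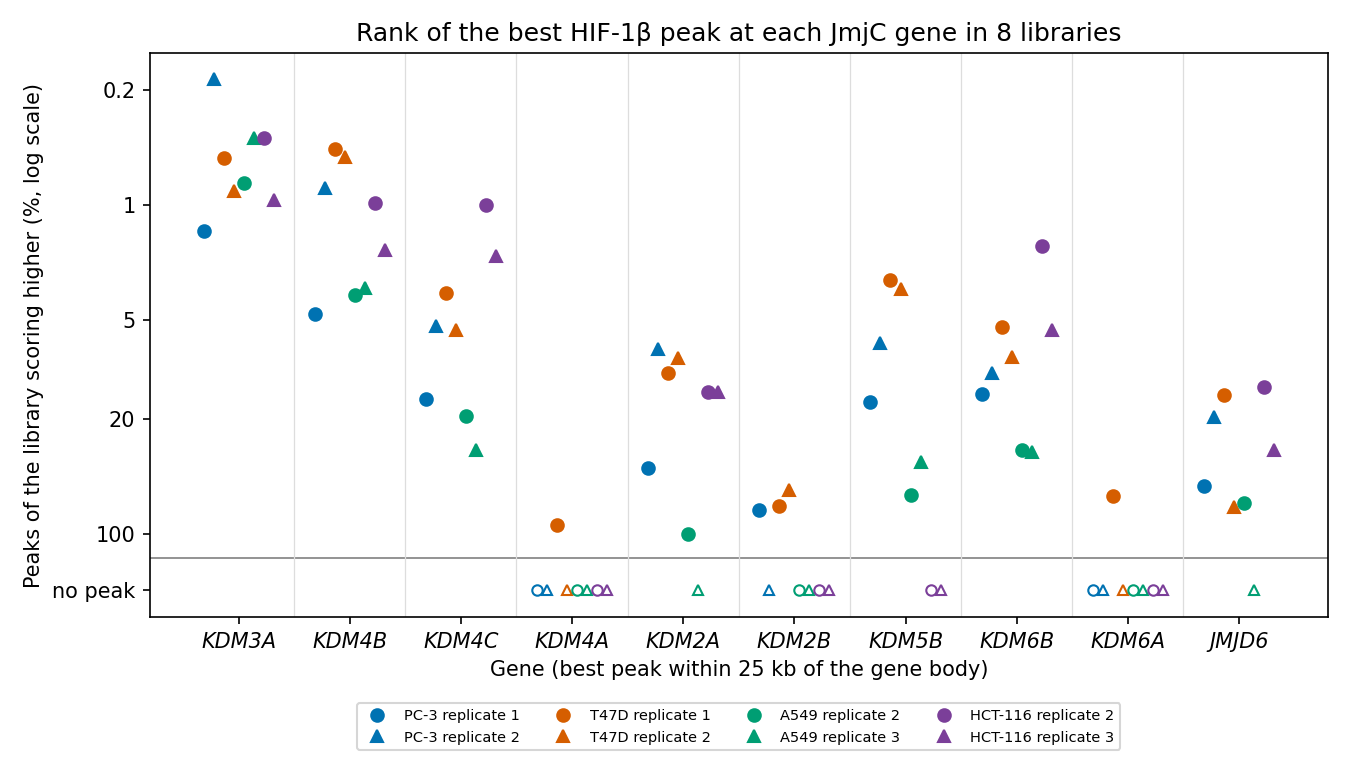
Percentage of peaks of the library that scored higher than the best peak within 25 kb of each JmjC gene (vertical axis, log scale, strong peaks at the top), with 1 point for each of the 8 libraries; circles are the lower-numbered replicate, triangles the higher-numbered, colours the lines, and open symbols below the grey line mark libraries without a peak. All 8 libraries lie below 1.5% for KDM3A and below 5% for KDM4B, while KDM4A and KDM6A had a peak in T47D replicate 1 alone.

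At the 32 member sites in the 4 lines, which by definition have overlapping peaks, the peaks of both replicates shared a median of 86.5% of their joint length, and their centres lay a median of 61 bp apart. Over 5802 sites with 1 peak of each replicate, the medians were 81.3% and 78 bp. Of the 75 peaks near the 10 genes, 64 (85.3%) had a counterpart in the other replicate of the line, against 62.7% of all peaks of the 8 libraries. That share ranged from 33.6% of the peaks in PC-3 replicate 2 to 93.1% in replicate 1 of the same line, whose list was shorter. The 11 without one included the only peaks at KDM4A and KDM6A.

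Whether the lines differed by more than their replicates was tested by setting the 4 replicate pairs against every possible pairing of the 8 libraries. The smallest p that this test can give is 0.0095, and the p-values measure only the spread between these libraries, which may be technical. Replicates of a line differed by a mean of 1.25 in the number of the 10 genes with a peak, against 1.82 over all pairings (exact permutation test, one-sided, p = 0.26). That number was 8 and 7 in PC-3, 10 and 8 in T47D, 7 and 5 in A549, and 6 and 6 in HCT-116. The share of all genes with a peak within 25 kb was 7.45% and 17.2%, 22.4% and 21.4%, 9.30% and 7.15%, and 28.3% and 15.2% in the same order, and the part of the length of the lists in the number of members was not tested. With peaks within 2 kb of a start alone, the number of members was 6 and 6, 9 and 8, 5 and 4, and 6 and 6. The replicates then differed by a mean of 0.50 against 1.79 (exact permutation test, one-sided, p = 0.029). The share of all genes with such a peak was 2.47% and 6.16%, 10.8% and 10.0%, 3.0% and 2.24%, and 14.2% and 6.93%. Its part in the number of members was not tested either. The state of the genes, with or without a peak, was the same for 87.5% of the genes within lines and for 80.4% over all pairings (exact permutation test, one-sided, p = 0.086).

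The rank of the best peak was tested in the same way for the 7 genes with a peak in at least 4 libraries, with a library without a peak set to 100% and Benjamini-Hochberg adjustment over the 7 genes. KDM5B had the smallest p, with replicates a mean of 7.60 points apart against 47.7 points over all pairings (exact permutation test, one-sided, p = 0.0095, adjusted p = 0.067). Both HCT-116 values for KDM5B were the 100% set for a library without a peak. For KDM6B the means were 2.93 and 13 points, and for KDM4C they were 6.08 and 11.8 points (exact permutation test, one-sided, p = 0.029 and adjusted p = 0.067 for each). KDM2A (adjusted p = 0.15), KDM4B (0.25), JMJD6 (0.57) and KDM3A (1) had higher values in the same exact permutation test. None of the 7 genes passed an adjusted p of 0.05, and 3 had an unadjusted p under 0.05. These counts were not set against other genes, so they do not tell whether the members differ from genes at large. For KDM3A, replicates were further apart (0.614 points) than libraries in general (0.468 points), in a gene whose 8 values all lay between 0.173% and 1.44%. The best peak of KDM4C was the upstream region in A549 and HCT-116 cells and the promoter in PC-3 and T47D cells. That of JMJD6 was the promoter in T47D cells and the region near MXRA7 in the other libraries with a peak. With peaks within 2 kb of a start alone, KDM4C replicates were a mean of 10.1 points apart (exact permutation test, one-sided, adjusted p = 0.25). In that test the adjusted p was 0.25 for KDM5B and 0.2 for KDM6B.

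The core motif was present in nearly all member sites, as in sites at large. It was found in 7 of 7 member sites in PC-3, 9 of 10 in T47D, 6 of 6 in A549 and 9 of 9 in HCT-116, against 98.4%, 96.3%, 96.3% and 99% of all sites of these lines. In the 13 regions with a site, 12 held at least 1 copy of ACGTG or GCGTG on either strand (a palindromic CACGTG counts on both), with a median of 8 copies. Windows of 1956 bp, the median length of these regions, at the canonical starts of all protein-coding genes held a copy in 95.4% of cases, with a median of 5. Within 100 bp of the mean centre, 9 of the 13 regions held a copy, against 43.3% of windows of 200 bp at all starts. By line, the central 200 bp of the sites held a copy in 5 of 7 member sites in PC-3, 4 of 10 in T47D, 5 of 6 in A549 and 6 of 9 in HCT-116. The share of all sites of the line was 73.6%, 64.3%, 71.1% and 73.0%, respectively. The median number of copies per kb was higher in member sites than in all sites, at 5.18 against 2.76 in PC-3, 3.60 against 3.28 in T47D, 6.27 against 2.61 in A549 and 4.38 against 3.76 in HCT-116. The member sites of PC-3 and A549 cells also had a higher median GC content (62.0% and 63.1%) than all sites of these lines (52.8% and 50.2%), and the part of base composition in these numbers was not tested.

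**Figure D4:**
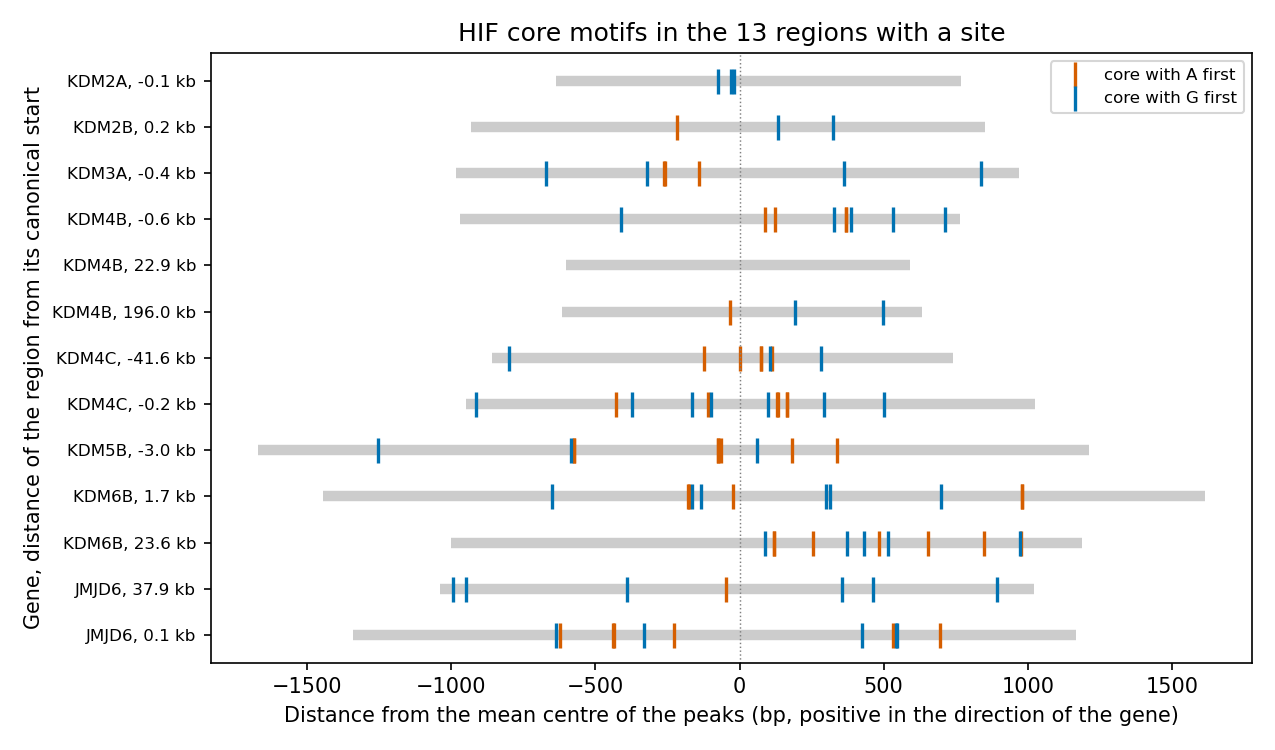
Positions of the HIF core (ticks; colours tell ACGTG and GCGTG apart) in the 13 regions with a site (grey bars), by distance in bp from the mean centre of the peaks. The 3 copies at the KDM2A promoter lie within 100 bp of the centre, the KDM4C upstream region has one at the centre itself, and the KDM4B region in intron 1 has none.

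Of 20 further JmjC genes, 1 had a site within 25 kb in PC-3, 4 in T47D, 2 in A549 and 5 in HCT-116, and 0, 4, 1 and 3 of them had one within 2 kb of a start, beside the shares of all genes given above. KDM5C, a paralogue of KDM5B on the X chromosome, had a promoter site in 3 lines, including HCT-116 cells, where 25.4% and 55.3% of peaks scored higher. In T47D cells the values were 29.5% and 31.5%, and in A549 cells 35.1% and 40.9%. HR, which encodes the Hairless protein, had a site within 25 kb in all 4 lines, at a promoter in T47D cells alone. KDM3B and JMJD1C, which are among the paralogues of KDM3A, had no site in any line. KDM1A, 1 of 2 flavin-dependent demethylases that need no 2-oxoglutarate, had a site within 25 kb in PC-3 cells, and neither had a promoter site in any line.

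TET2, 1 of the 3 TET dioxygenases that oxidise methylcytosine, had a promoter site in PC-3 cells (87.8% and 34.9% of peaks scoring higher), T47D cells (95.6% and 41.1%) and HCT-116 cells (21.2% and 35.3%). Of these 3 genes, 1, 3, 0 and 1 had a site within 25 kb in PC-3, T47D, A549 and HCT-116 cells, and 1, 2, 0 and 1 had a promoter site. Of 19 genes of the lysine methyltransferase families, 1 had a promoter site in PC-3, 4 in T47D, 2 in A549 and 4 in HCT-116, and the numbers within 25 kb were 1, 5, 3 and 5. KMT2E, a protein of the MLL family, alone had one in all 4 lines, with between 2.25% and 9.40% of peaks scoring higher in the 8 libraries. KMT2A, a methyltransferase for lysine 4 of histone H3, had one in T47D, A549 and HCT-116 cells, with 12.9% to 90.5% of peaks scoring higher.

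The profile of each gene over the 8 libraries was set against those of all 502 protein-coding genes with a peak within 25 kb in every library. The genes closest to KDM3A were FAM174B, ENO1 and ALDOA, which differed from it by a mean of 0.396, 0.505 and 0.516 percentage points. Those closest to KDM4B were NUDT13, P4HA1 and C4orf3, at 0.803, 0.803 and 0.812 points. KDM4C was closest to BCKDK, KAT8 and a gene without a symbol, each at 1.40 points, and KDM6B to DENND1A, ARHGDIA and P4HB, at 2.65 to 2.67 points. Neighbouring genes in these lists share peaks, and all values rest on the same 8 lists, so the distances are a description.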

How the data were processed

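Peak lists of 8 HIF-1β ChIP-seq libraries were used. Each list was deposited by the authors as MACS peaks of 1 library, with hg19 (GRCh37) intervals and a score that no header explains. Per the labels, Trim Galore 0.3.3, BWA 0.7.5a-r405, SAMtools 0.1.19, bedtools 2.17.0 and Picard 1.106 were also used. The study names T-PIC as a second caller, but names of peaks run without a gap in all 8 lists, so a selection by it is not visible.

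Genes and starts were those of protein-coding transcripts in GENCODE release 44 lifted to GRCh37, on 24 main chromosomes. The overlap of 1 bp between datasets followed the study, whose selection by T-PIC was not applied. The 2 kb around starts is the promoter width that the study gave for its chromatin interactions. The study used 25 kb around binding sites and susceptibility loci, and its use around gene bodies was set here. All 10 members were named. Genes of 4 further lists were named where 3 lines had a promoter site, and neighbours where their start was nearest. PCAT6, METTL23, CYB5D1, HR, KDM1A, KDM3B and JMJD1C were named after their values were seen. For likeness, 3 genes with the smallest mean difference were named. The 2 Y-linked JmjC genes were left out. The members and lists were chosen with earlier results of these data known.

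Counting and permutation tests were tested on simulated data. Python 3.11.15, NumPy 2.4.6, pandas 2.3.3, SciPy 1.17.1, pysam 0.24.0, samtools 1.23.1 and Matplotlib 3.10.9 were used. The alternatives were another overlap, a peak of either replicate, the higher-scoring 50% of each list, other windows and starts, each replicate left out, rank as a number of peaks, the central 200 bp of sites and a replicate block.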

Additional observations from a re-analysis of the deposited data

How the results depend on the processing

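Of the numbers of the 10 genes with a site or a promoter site, none moved by over 1.5 times under any alternative run. With 10 genes, however, a number of 7 (PC-3, within 25 kb) or 8 (T47D, both rules) could not rise that far. A peak of either replicate raised the numbers within 25 kb to 8, 10, 7 and 6 in PC-3, T47D, A549 and HCT-116 cells, and the higher-scoring 50% of each list lowered them to 6, 6, 4 and 6. The shares of all genes moved further, to 17.5%, 27.2%, 10.3% and 29.2% with either replicate, to 3.76%, 8.83%, 3.45% and 7.80% with the higher-scoring 50%, and to 3.44%, 8.78%, 3.12% and 7.74% with the gene body alone. They also rose by over 1.5 times without PC-3 replicate 1 (17.2%), A549 replicate 3 (9.30%) or HCT-116 replicate 3 (28.3%). The promoter shares of all genes moved likewise, to 6.32%, 13.5%, 3.39% and 14.7% with either replicate, to 1.19%, 3.8%, 0.944% and 3.33% with the higher-scoring 50%, and to 6.16%, 3.0% and 14.2% without the same 3 libraries. With each replicate left out, the numbers of the 10 genes ranged from 7 to 8, 8 to 10 and 5 to 7 in PC-3, T47D and A549 cells, and stayed at 6 in HCT-116 cells, and KDM4A and KDM6A counted without T47D replicate 2 or with a peak of either replicate, and under no other leave-out. The test on the number of genes with a peak per library passed 0.05 only within 2 kb of a start (mean difference 0.50, exact permutation test, p = 0.029), with p between 0.26 and 0.33 otherwise. Ranked by the number of peaks scoring higher, the replicates of KDM3A were closer than other pairs (mean difference 7.25 peaks, exact permutation test, adjusted p = 0.43), which reversed its direction. The core motif was found in 9 of 10 T47D member sites over the whole site and in 4 in the central 200 bp, a narrower search by construction. With permutation only within a replicate number (the replicate block), the direction for JMJD6 was reversed at a mean difference of 34.9 points (exact permutation test, adjusted p = 0.68), and no call changed. The labels give no shared batch or day for a number. The deviations of same-numbered libraries at 232 regions correlated between -0.019 and 0.33, not above 0.1 in every pair, so the numbers were not taken to pair the libraries. The correlation was 0.33 for PC-3 with HCT-116, 0.2 for PC-3 with A549 and 0.12 for T47D with A549 cells. Whether some of the libraries shared a batch was not tested. Depth is unknown, so a missing peak means no peak above the score limit and not an absence of binding.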
